A study of Mus musculus with 12 samples.

Results

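*Fgf5*, *Otx2*, *Pou3f1*, *Zic2*, *Zic5*, *Sall2* and *Foxd3*, 7 genes of the formative and primed epiblast, were followed in WT and *Meteor* KO cells at day 0 and at day 3 of differentiation. They were taken as a named list, without a threshold on their values but with earlier results of these data known. The shares of members called below are therefore not independent of the choice of the list. The members are 7 of the 46517 genes in the count tables. All 7 had more than 1 CPM (its read count relative to the size of the library) in at least 1 sample and were tested with the 15673 genes that passed this filter.

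Polyadenylated RNA was sequenced from 4 groups of 3 replicates, all from an *Eomes* EGFP reporter mouse ESC line labelled with a C57BL/6 background. WT and KO cells at day 0 were undifferentiated ESCs, kept on feeders of mouse embryonic fibroblasts in ES cell medium. WT and KO cells at day 3 were embryoid bodies, that is aggregates of differentiating ESCs, made in hanging drops of a cardiac differentiation medium with serum, thioglycerol and ascorbic acid. KO cells lack *Meteor*, an enhancer locus upstream of *Eomes* that is transcribed into a lncRNA. It was removed with guide RNAs and a Cas9 nickase, and clones were picked after selection in puromycin, but the number of clones behind the RNA is not given in the sources used here.

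Cells of the mouse epiblast leave naive pluripotency, in which *Klf* genes, *Esrrb* and *Nr0b1* are active, and pass through a formative state before they are primed for the germ layers. FGF signals and *Otx2* are known to drive this step, and *Fgf5* is its standard marker. Several of the transcription factors that come up with it, among them *Otx2*, *Pou3f1* and the *Zic* genes, are used again in the anterior neural plate.

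The depth ranged from 17455927 to 23910943 counted reads a sample (median 19651103). The deletion was visible in every KO sample. *Platr11*, a lincRNA annotated at the *Meteor* locus, had 0.513 to 6.12 CPM in WT and at most 0.0551 CPM in KO, and ENSMUSG00000103968 beside it had no reads in KO. *Upf3b*, a nonsense-mediated decay factor on chromosome X, had 45.5 to 55.9 CPM in WT and at most 0.661 CPM in KO, so its near loss and the deletion cannot be told apart in any difference below. Of 16 naive pluripotency genes, 15 fell in WT and 16 in KO from day 0 to day 3, and *Pou5f1*, *Sox2* and *Sall4* did not pass the test between WT and KO ESCs. Some samples stood apart within their groups. WT replicate 3 at day 0 had a summed level of 196.1 CPM for 10 primitive streak genes, against 75.79 and 49.84 CPM in the other WT ESCs, and WT replicate 3 at day 3 had 319 CPM for 8 markers of visceral and primitive endoderm, against 80.41 and 78.08 CPM.

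Promoter sequence is shown for *Fgf5* and *Otx2*, both lower in KO than in WT ESCs, and for *Foxd3*, the member that was not lower there. Each line holds the 250 bases before an annotated start, 5′ to 3′ on the strand of the gene, from RefSeq on GRCm38.p6. CpG dinucleotides are in capitals. The windows lie at chr5:98253934-98254183 on the plus strand, chr14:48667645-48667894 on the minus strand and chr4:99656049-99656298 on the plus strand, and none overlaps an annotated exon.
*Fgf5*: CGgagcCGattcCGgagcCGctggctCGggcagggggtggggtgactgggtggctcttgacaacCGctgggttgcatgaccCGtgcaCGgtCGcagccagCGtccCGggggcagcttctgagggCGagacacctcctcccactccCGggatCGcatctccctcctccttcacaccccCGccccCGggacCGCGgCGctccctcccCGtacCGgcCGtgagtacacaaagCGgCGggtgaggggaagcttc
*Otx2*: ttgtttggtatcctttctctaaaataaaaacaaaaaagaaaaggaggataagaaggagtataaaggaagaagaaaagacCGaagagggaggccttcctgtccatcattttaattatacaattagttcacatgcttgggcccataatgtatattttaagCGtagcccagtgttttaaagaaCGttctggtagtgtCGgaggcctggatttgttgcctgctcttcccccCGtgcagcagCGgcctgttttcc
*Foxd3*: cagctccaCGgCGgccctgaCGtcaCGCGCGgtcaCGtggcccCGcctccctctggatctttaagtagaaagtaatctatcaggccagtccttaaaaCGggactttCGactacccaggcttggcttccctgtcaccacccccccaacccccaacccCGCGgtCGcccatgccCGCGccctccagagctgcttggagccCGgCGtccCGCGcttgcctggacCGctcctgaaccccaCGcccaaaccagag

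The *Fgf5* and *Foxd3* windows were rich in CpG, with 24 and 21 CpG dinucleotides and a G+C content of 70.8% and 65.6%. The window before this start of *Otx2* had 6 CpG dinucleotides and 42% G+C, and the medians over all 32851 windows of the table were 6 and 52.4%. The windows before the other starts of *Otx2* held more, with 8, 14 and 9 CpG dinucleotides and 49.2%, 48.4% and 53.6% G+C. The CpG-dense windows of *Fgf5* and *Foxd3* thus belonged both to a gene that was lower in KO ESCs and to the member that was not. Of the 7 members, 5 had entries, with 9 windows in all. Searched on both strands, the motif TAATCC, bound by OTX factors, was in 1 of the 9 windows, before another start of *Otx2*, and in 6.25% of all windows. The octamer ATGCAAAT, bound by POU factors, and CTTTGA, bound by TCF and LEF factors, were in none of the 9, and in 1.6% and 13.8% of all windows.

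At day 0, *Fgf5*, *Otx2*, *Pou3f1*, *Zic2*, *Zic5* and *Sall2* were lower in *Meteor* KO than in WT ESCs, and *Foxd3* did not pass the test. The mean levels were between 3.91-fold lower for *Pou3f1* and 10.8-fold lower for *Fgf5*, whose WT mean rests largely on replicate 3. For each of the 6 genes, the highest KO sample was below the lowest WT sample. Thus 6 of 7 members were called lower and 0 higher, where 10.9% of all tested genes were called lower and 9.56% higher (edgeR's quasi-likelihood test, adjusted p below 0.05). The median log2 fold change of the members was -2.40, against -0.01 over all tested genes. Over all tested genes, 17.4% had every KO sample below every WT sample at this day. In bulk RNA, fewer cells with a transcript and less of it per cell cannot be told apart.

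At day 3 the members were spread over both directions. *Pou3f1*, *Sall2* and *Foxd3* were higher in KO embryoid bodies, while the other members did not pass the test. The 3 called higher stand against a background of 14.3% of tested genes called higher and 16.7% called lower, and the median log2 fold change of the members was 0.58, against -0.002 over all genes. All KO samples lay above all WT samples for *Otx2*, *Pou3f1*, *Sall2* and *Foxd3*, which 20.8% of all tested genes also showed. Within a day, samples that share a replicate number deviated together from their group means, and a fit with a replicate block within each day called 6 of the 7 members at day 3. In that fit *Otx2* joined the genes called higher, and *Fgf5* and *Zic2* were called lower. The same fit called 22.5% of all genes higher and 24.4% lower at day 3. At day 0 it added *Foxd3* as higher, with 16.8% of all genes called higher and 18% lower.

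**Figure D1:**
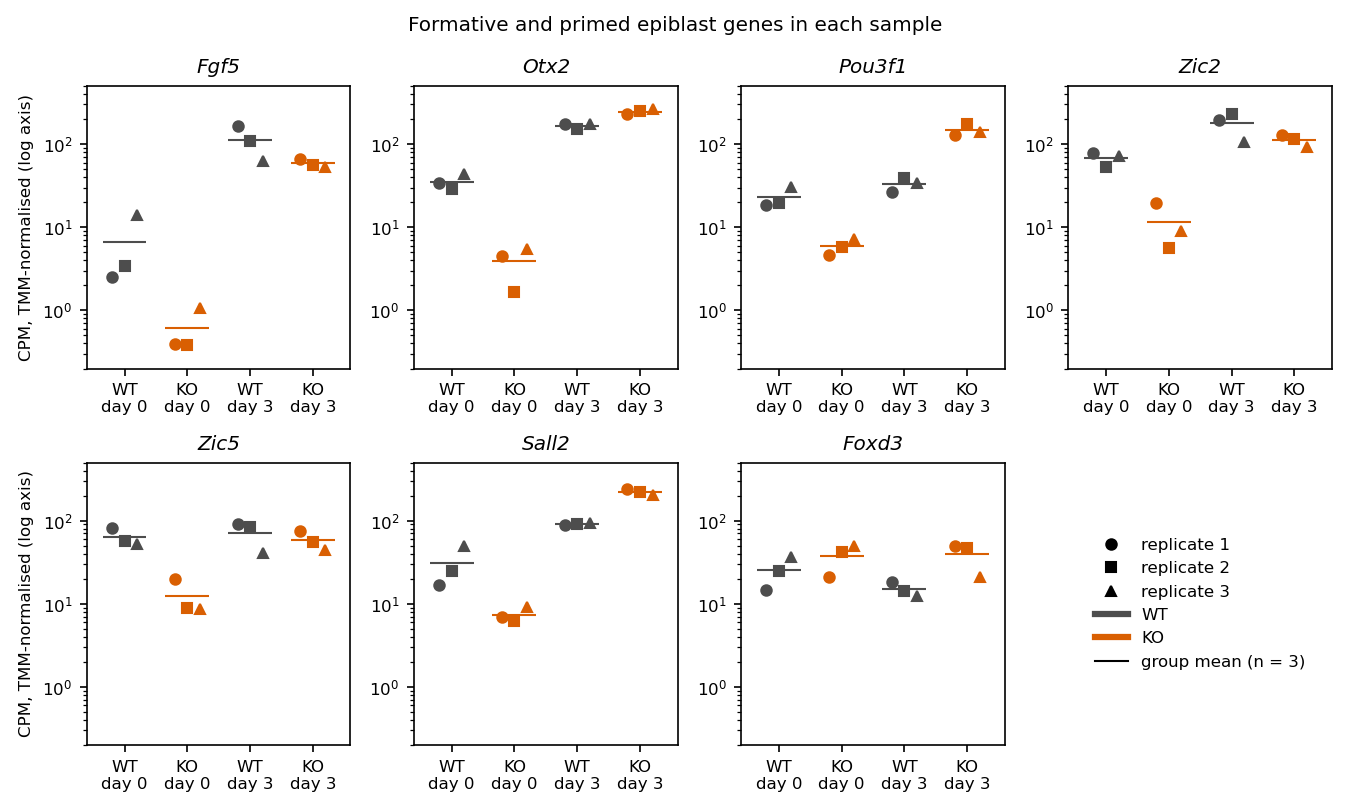
Expression of the 7 members in each of the 12 samples, in TMM-normalised CPM on a log axis, with 1 symbol for each replicate number and a line at the group mean (n = 3). For 6 members the KO samples at day 0 lie below all WT samples, and at day 3 the KO samples of *Otx2*, *Pou3f1*, *Sall2* and *Foxd3* lie above all WT samples.

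From day 0 to day 3, *Fgf5*, *Otx2*, *Pou3f1*, *Zic2* and *Sall2* rose in WT, and these 5 and *Zic5* rose in KO. The background was 30.7% of genes called higher and 25.5% lower in WT, and 29.4% higher and 27.2% lower in KO. The median log2 rise of the members was 1.37 in WT and 4.66 in KO, against 0.07 and 0.03 over all genes. The difference of the KO effect between the days, tested as an interaction, was positive and past the threshold for *Otx2*, *Pou3f1*, *Zic2*, *Zic5* and *Sall2*. These are 5 of 7, where 8.21% of all genes were called in this direction and 7.34% in the other. With the block within each day all 7 passed, against 16.2% and 15% of all genes.

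**Figure D2:**
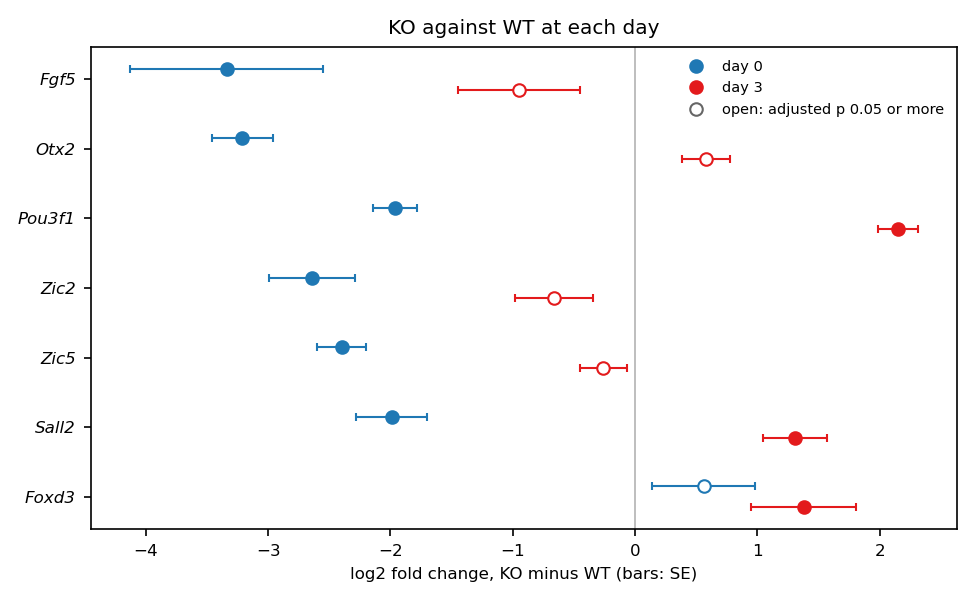
Log2 fold change of KO against WT at day 0 (blue) and day 3 (red) for each member, with bars of 1 SE from edgeR and open points where the adjusted p was 0.05 or more. The blue points of 6 members lie between -3.34 and -1.96, and the red points spread from -0.95 to 2.15.

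*Fgf5* encodes a secreted FGF ligand and lies on chromosome 5 of GRCm38 from 98254184 to 98277030. WT ESCs had 2.51, 3.44 and 14 CPM in replicates 1, 2 and 3, and KO ESCs 0.392, 0.386 and 1.07 CPM. All KO values were below all WT values, and they rest on 7 to 21 reads a sample. The WT mean was 6.64 ± 6.35 CPM and the KO mean 0.617 ± 0.395 CPM (SD, n = 3). This gave a log2 fold change of -3.34 (SE 0.79, adjusted p = 0.0152 in edgeR). WT replicate 3, the sample with raised primitive streak genes, was also the highest for *Fgf5*, and without it the log2 fold change was -2.09 (adjusted p = 0.0417). The call was lost when any 1 of KO replicates 1, 2 and 3 was left out, with adjusted p = 0.055, 0.0607 and 0.0501 in edgeR.

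At day 3 *Fgf5* had 163.9, 107.9 and 62.1 CPM in WT and 66.5, 56.1 and 53.2 CPM in KO. The KO values lay close together, and the lowest WT sample fell within their range. WT averaged 111.3 ± 51.0 CPM and KO 58.6 ± 7.02 CPM (SD, n = 3). The log2 fold change was -0.95 (SE 0.50, adjusted p = 0.178 in edgeR). The lowest WT sample was the one with raised endoderm markers, and leaving it out gave -1.41 with adjusted p = 0.0363. With the block within each day the values were -0.83 and adjusted p = 0.00353. *Fgf5* rose 16.8-fold in WT and 95-fold in KO by the means, with log2 values of 4.19 (SE 0.61, adjusted p = 0.000291 in edgeR) and 6.58 (SE 0.75, adjusted p = 5.12e-05). With 1 sample left out, the WT rise ranged from 3.56 without WT replicate 1 at day 0 to 5.28 without WT replicate 3 at day 0, and was 4.85 without WT replicate 3 at day 3. The difference of the KO effect between the days was 2.39 (SE 0.97, adjusted p = 0.123), or 2.56 with adjusted p = 0.00207 under the block within each day. Without WT replicate 1 at day 0 this difference was 2.99 (adjusted p = 0.044), and without WT replicate 3 at day 0 it was 1.23 (adjusted p = 0.245).

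*Otx2* encodes a homeodomain factor of the epiblast and the forebrain and lies on the minus strand of chromosome 14 from 48657677 to 48673819. It was at 34, 28.9 and 43.6 CPM in WT ESCs and at 4.54, 1.65 and 5.46 CPM in KO ESCs. The lowest WT sample was well above the highest KO sample. WT averaged 35.5 ± 7.46 CPM and KO 3.89 ± 1.99 CPM (SD, n = 3), 9.13-fold less. On the log2 scale the change was -3.21 (SE 0.25, adjusted p = 7.72e-05 in edgeR). No sample left out ended this call. WT replicate 3 was the highest WT sample for *Otx2* too, but by a smaller margin than for *Fgf5*.

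In embryoid bodies *Otx2* stood at 173.7, 150.5 and 172.6 CPM in WT and at 229.3, 247 and 262.4 CPM in KO. The order of the genotypes was turned, with all KO samples above all WT samples. The log2 fold change was 0.58 (SE 0.20), which missed the threshold at adjusted p = 0.0537 in edgeR and passed it at 0.00484 with the block within each day. From day 0 to day 3 *Otx2* rose 4.67-fold in WT and 63.4-fold in KO by the means (log2 2.24, SE 0.21, adjusted p = 2.67e-05, and log2 6.03, SE 0.27, adjusted p = 2.3e-07 in edgeR). The KO effect differed between the days by 3.79 (SE 0.32, adjusted p = 0.000272).

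*Pou3f1*, also known as Oct6, encodes a POU factor of the late epiblast and of neural precursors, on chromosome 4 from 124656807 to 124660655. WT ESCs had 18.3, 19.7 and 30.9 CPM, and KO ESCs 4.6, 5.84 and 7.2 CPM. The groups did not overlap, and the log2 fold change was -1.96 (SE 0.18, adjusted p = 0.000189 in edgeR). At day 3 the values were 26.7, 38.8 and 34.5 CPM in WT and 128.5, 174.3 and 138.8 CPM in KO. Here KO was the higher group, again without overlap, at a mean of 147.2 ± 24.0 CPM against 33.3 ± 6.17 CPM (SD, n = 3), 4.41-fold higher. This was the largest day 3 difference among the members, with a log2 fold change of 2.15 (SE 0.16, adjusted p = 4.79e-05 in edgeR).

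The rise of *Pou3f1* over the 3 days was small in WT, 0.54 on the log2 scale (SE 0.16, adjusted p = 0.0166 in edgeR), with overlapping values at the 2 days. It was lost in the fit without the replicate block (adjusted p = 0.0563), without WT replicate 2 at day 0 (0.0845) and without WT replicate 2 at day 3 (0.0713). In KO the rise was 25.0-fold by the means, with log2 4.66 (SE 0.19, adjusted p = 1.66e-07). The KO effect differed between the days by 4.12 (SE 0.24, adjusted p = 0.000123), the largest such difference of the 7 genes.

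*Zic2* and *Zic5* encode zinc finger factors of the epiblast and the neural plate. They lie head to head on chromosome 14, *Zic2* from 122475435 to 122479852 on the plus strand and *Zic5* from 122456795 to 122465677 on the minus strand, with starts 9758 bp apart. In WT ESCs *Zic2* had 78.3, 52.4 and 71.7 CPM and *Zic5* 81.9, 56.2 and 52.2 CPM. In KO ESCs *Zic2* had 19.6, 5.62 and 9.09 CPM and *Zic5* 20.1, 8.87 and 8.68 CPM. Both genes were lower in every KO sample, and KO replicate 1 was the highest of its group for both. The log2 fold changes were -2.64 for *Zic2* (SE 0.35, adjusted p = 0.00102 in edgeR) and -2.40 for *Zic5* (SE 0.20, adjusted p = 0.000125).

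At day 3 *Zic2* had 194.1, 230.2 and 107.1 CPM in WT and 127.5, 114.4 and 92.2 CPM in KO, and *Zic5* 89.9, 83.5 and 41 CPM in WT and 75.1, 55.9 and 44.5 CPM in KO. The groups overlapped for both genes, with WT replicate 3, the sample with raised endoderm markers, low for both. The part of those markers in its values was not tested. The log2 fold changes were -0.66 for *Zic2* (SE 0.32, adjusted p = 0.139 in edgeR, 0.0249 with the block within each day) and -0.26 for *Zic5* (SE 0.19, adjusted p = 0.317). *Zic2* rose in WT by 1.37 on the log2 scale (SE 0.33, adjusted p = 0.00511) and in KO by 3.35 (SE 0.36, adjusted p = 3.41e-05). The value for *Zic5* was 0.14 in WT (SE 0.19, adjusted p = 0.555) and the rise in KO was 2.28 (SE 0.20, adjusted p = 1.08e-05).

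The proportions of the pair differed between the days. The CPM of *Zic2* over that of *Zic5* was 0.956, 0.932 and 1.37 in WT ESCs and 0.975, 0.634 and 1.05 in KO ESCs. At day 3 it was 2.16, 2.76 and 2.61 in WT and 1.7, 2.05 and 2.07 in KO. The ratio was above all day 0 values in every day 3 sample of both genotypes. The KO effect differed between the days by 1.98 for *Zic2* (SE 0.47, adjusted p = 0.0188 in edgeR) and by 2.14 for *Zic5* (SE 0.27, adjusted p = 0.00146). The call for *Zic2* was lost without KO replicate 2 at day 3, at 1.87 and adjusted p = 0.0561. *2610035F20Rik*, a noncoding transcript that starts 236 bp from the start of *Zic2* on the other strand, went with them at day 0. It had 54 reads over the 3 WT ESC samples and 8 over the KO samples, and 131 and 132 reads at day 3, with log2 fold changes of -2.68 (SE 0.59, adjusted p = 0.0107) and -0.00 (SE 0.37, adjusted p = 0.996). *Gm5089*, which starts 14562 bp from *Zic5*, had only 13 and 1 reads at day 0.

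*Sall2* encodes a zinc finger factor of the Spalt family, on the minus strand of chromosome 14 from 52311172 to 52328762. Its levels were 16.8, 24.8 and 50.1 CPM in WT ESCs and 6.89, 6.28 and 9.04 CPM in KO ESCs. The WT samples spread over a wide range with replicate 3 on top, and all KO samples were below them. The log2 fold change was -1.99 (SE 0.29, adjusted p = 0.00162 in edgeR). At day 3 the values were 89.3, 90.4 and 92.7 CPM in WT and 239.2, 222.4 and 206 CPM in KO. Both groups were tight, and KO was 2.45-fold higher by the means, with a log2 fold change of 1.31 (SE 0.26, adjusted p = 0.00469).

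Over differentiation *Sall2* rose by 1.65 on the log2 scale in WT (SE 0.27, adjusted p = 0.000621 in edgeR) and by 4.95 in KO (SE 0.31, adjusted p = 1.46e-06), and its KO effect differed between the days by 3.30 (SE 0.39, adjusted p = 0.00106). *Sall2* and *Pou3f1* were the 2 members called lower at day 0 and higher at day 3. Of all 1703 genes called lower at day 0, 12% were called higher at day 3, 32.9% were called lower again and the rest were not called.

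**Figure D3:**
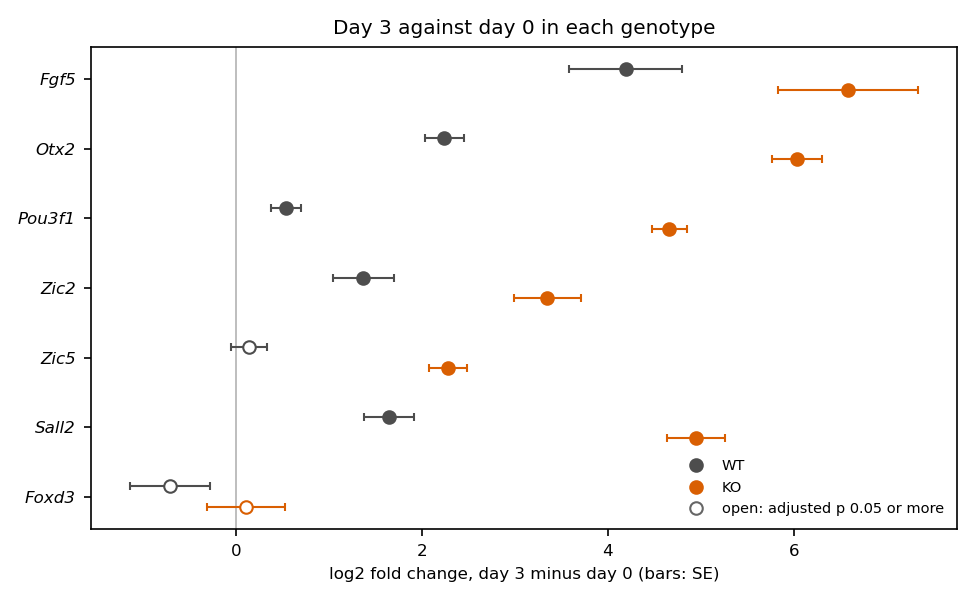
Log2 fold change from day 0 to day 3 in WT (grey) and KO (orange) for each member, with bars of 1 SE from edgeR and open points where the adjusted p was 0.05 or more. The KO point lies to the right of the WT point for all 7 genes, most for *Pou3f1* (0.54 and 4.66) and least for *Foxd3* (-0.71 and 0.11).

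*Foxd3* encodes a forkhead repressor that is active in ESCs and the epiblast and later in the neural crest, on chromosome 4 from 99656299 to 99658622. Its values were 14.6, 24.9 and 36.1 CPM in WT ESCs and 21.1, 42 and 48.9 CPM in KO ESCs. The groups overlapped, although KO was higher in 3 of 3 pairs of the same replicate number. The log2 fold change was 0.56 (SE 0.42, adjusted p = 0.388 in edgeR), and 0.57 with adjusted p = 0.0195 under the block within each day. At day 3 WT had 18.4, 14.2 and 12.4 CPM and KO 50, 46.9 and 20.8 CPM. All KO samples were above all WT samples, replicate 3 only narrowly. The call at a log2 fold change of 1.38 (SE 0.43, adjusted p = 0.0338 in edgeR) was lost under 5 alternatives. It missed the threshold in limma-voom (adjusted p = 0.0575) and without WT replicate 2 (0.104), WT replicate 3 (0.098), KO replicate 1 (0.179) or KO replicate 2 (0.105) of day 3.

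Of the 7 genes, *Foxd3* alone was called in neither genotype between the days, with -0.71 in WT (SE 0.43, adjusted p = 0.185 in edgeR) and 0.11 in KO (SE 0.42, adjusted p = 0.841). Its KO effect differed between the days by 0.82 (SE 0.59, adjusted p = 0.388, or 0.0313 with the block within each day). *Gm12688*, a lincRNA that starts 1316 bp from the start of *Foxd3* on the other strand, had 215 and 302 reads in WT and KO ESCs and 220 and 618 reads in WT and KO embryoid bodies, summed over 3 samples. Its log2 fold change was 0.44 at day 0 (SE 0.39, adjusted p = 0.475) and 1.54 at day 3 (SE 0.39, adjusted p = 0.0139).

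Scaled to exon length, the level of *Zic2* was the highest of the members in WT ESCs at 23.4 CPM per kb, followed by *Zic5* at 13.0, *Foxd3* at 10.9, *Otx2* at 8.41, *Pou3f1* at 5.97, *Sall2* at 5.63 and *Fgf5* at 2.65 CPM per kb. The spread resolved this order only in part. *Zic2* stood above the rest, but each of the neighbours *Zic5* and *Foxd3*, *Foxd3* and *Otx2*, *Pou3f1* and *Sall2*, and *Sall2* and *Fgf5* differed by less than the larger of their SDs. In KO ESCs *Foxd3* led with 16.1 CPM per kb, and the other members ranged from 0.247 CPM per kb for *Fgf5* to 3.97 CPM per kb for *Zic2*. In WT embryoid bodies the order was *Zic2* at 61.5, *Fgf5* at 44.5, *Otx2* at 39.2, *Sall2* at 16.7, *Zic5* at 14.6, *Pou3f1* at 8.66 and *Foxd3* at 6.46 CPM per kb. *Zic2*, *Fgf5* and *Otx2* were not resolved, since the SDs were 22 CPM per kb for *Zic2* and 20.4 CPM per kb for *Fgf5*, nor were *Sall2* and *Zic5*. In KO embryoid bodies *Otx2* led with 58.3 CPM per kb, *Sall2*, *Zic2* and *Pou3f1* followed at 41.0, 38.7 and 38.2 CPM per kb, closer together than their spread, and *Fgf5*, *Foxd3* and *Zic5* came last at 23.4, 16.9 and 12 CPM per kb, with gaps below the SD of *Foxd3*.

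The profiles of the members other than *Foxd3* resembled each other to different degrees over the 12 samples, which share the 4 groups, so that a correlation describes mainly the group means. With log2(CPM + 0.5), Pearson's r over their 15 pairs ran from 0.649 for *Pou3f1* and *Zic5* to 0.964 for *Otx2* and *Sall2*, with a median of 0.892. It was 0.961 for *Pou3f1* and *Sall2*, 0.945 for *Fgf5* and *Otx2* and 0.945 for *Zic2* and *Zic5*. *Foxd3* had r between -0.452 with *Zic2* and 0.071 with *Pou3f1*. The genes outside the list most like the mean standardised profile of the members were *Ptchd1* (r = 0.989), *Enpp2* (0.985), *Rab19* (0.983), *Cdh10* (0.983) and *Acsl4* (0.982). For single members, the closest were *Lysmd2* for *Fgf5* (0.992), *Marveld2* for *Otx2* (0.991), *Gdpd2* for *Pou3f1* (0.988), *Slc35f1* for *Zic2* (0.986), *Magohb* for *Zic5* (0.968), *Thbs3* for *Sall2* (0.989) and the pseudogene *Gm8186* for *Foxd3* (0.951).

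In KO ESCs, other genes of the formative and primed state went with the members in part. Of 20 such genes, none of them a member, 11 were lower and 1 was higher, with a median log2 fold change of -0.66. Without WT replicate 3, 8 were lower and 1 was higher. The largest decreases were those of *Lef1*, the nuclear effector of WNT signals (-2.90, SE 0.43, adjusted p = 0.00174 in edgeR), the ligand *Wnt8a* (-2.65, SE 0.82, adjusted p = 0.0466) and N-cadherin, *Cdh2* (-2.13, SE 0.37, adjusted p = 0.00367). Without WT replicate 3 the call of *Wnt8a* was lost, at -1.77 (adjusted p = 0.222 in edgeR). *Lef1* was then at -2.68 (adjusted p = 0.0117) and *Cdh2* at -1.50 (adjusted p = 0.0061). *Etv4*, an ETS factor downstream of FGF signals, was higher (1.17, SE 0.19, adjusted p = 0.00288). Of 16 naive pluripotency genes 8 were higher and 1 was lower, with a median of 0.58 (12 and 1 with the block within each day, 6 and 1 without WT replicate 3). *Klf5* (2.23, SE 0.18), *Nr0b1* (1.21, SE 0.15) and *Tcl1* (1.15, SE 0.17) led the increases, and *Dppa3* was the gene that was lower (-3.51, SE 0.26). None of the core factors *Pou5f1*, *Sox2* and *Sall4* was called, at a median of 0.01.

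**Figure D4:**
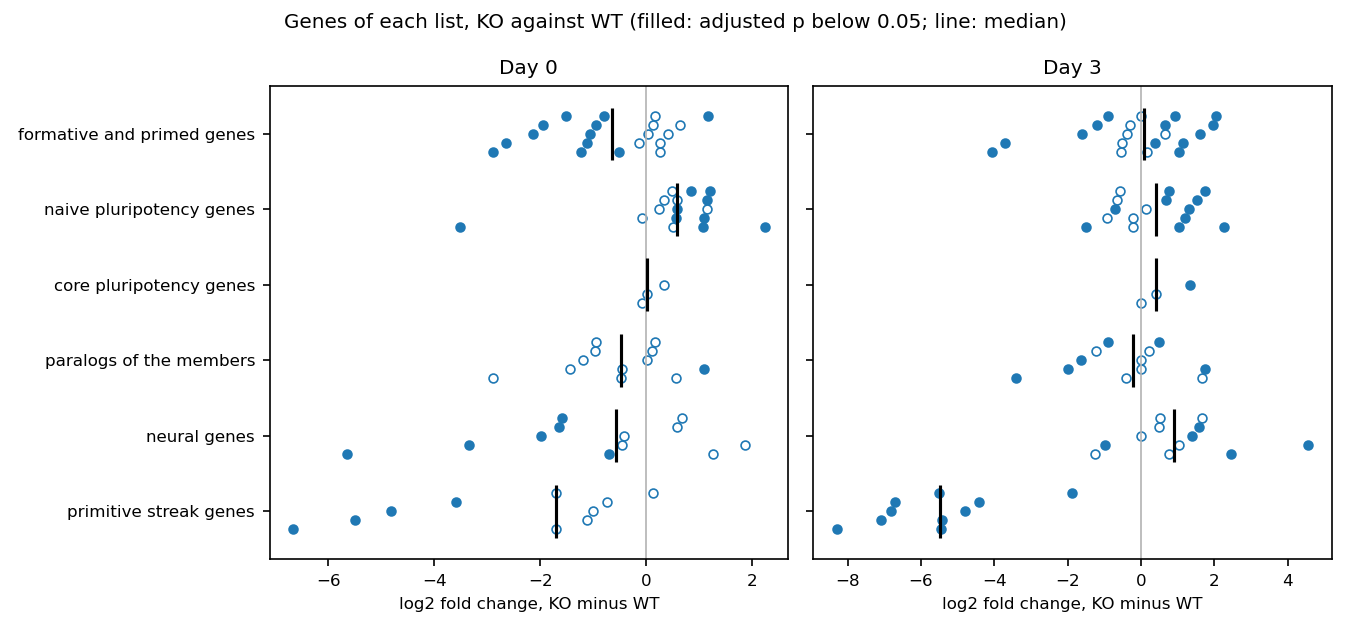
Log2 fold change of KO against WT at day 0 (left) and day 3 (right) for the genes of 6 lists, 1 point a gene, filled where the adjusted p was below 0.05, with a line at the median of each list. At day 0 the formative and primed genes have a median of -0.66 and the naive genes of 0.58, and at day 3 the formative genes spread on both sides of 0 and the primitive streak genes all lie below it.

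At day 3 the formative and primed genes split, with 8 higher and 5 lower of 20 and a median of 0.09. *Utf1* (2.06, SE 0.12), *Sox3* (1.96, SE 0.25) and the DNA methyltransferase gene *Dnmt3a* (1.60, SE 0.15) led the increases, and *Wnt8a* (-4.07, SE 0.75), *Cdh2* (-3.71, SE 0.36) and *Lef1* (-1.60, SE 0.40) the decreases. The 11 genes lower at day 0 held 5 that were higher at day 3, namely *Dnmt3a*, *Dnmt3b*, *Sox3*, *Sox4* and *Grhl2*, and 3 that were lower again. Those 5 were singled out after their values were seen. Over the 20 genes, 10 had a positive and 3 a negative difference of the KO effect between the days. From day 0 to day 3, 7 of the 20 rose and 5 fell in WT, and 10 rose and 7 fell in KO.

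*Sox2* was 1.35 higher on the log2 scale in KO at day 3 (SE 0.07, adjusted p = 3.6e-06 in edgeR), 1 of the 3 core factors called. Of the naive genes 8 were higher and 2 lower, with a median of 0.42. *Nr0b1* (2.26, SE 0.17), *Fgf4* (1.76, SE 0.23) and *Tcl1* (1.54, SE 0.22) led the increases, and *Dppa3* (-1.51, SE 0.29) and *Tfcp2l1* (-0.70, SE 0.14) were lower. Calls of neural genes were mostly lower at day 0 and mostly higher at day 3, but largely in different genes. Of 12, 6 were lower and 0 higher at day 0, or 4 and 0 without WT replicate 3, and 6 and 3 with the block within each day. Among them were *Hes5* (-3.34, SE 0.53) and *Nefm* (-1.99, SE 0.53, and -1.34 with adjusted p = 0.122 in edgeR without WT replicate 3). *Six3* was called too, but had 18 reads over the 3 WT ESC samples, none of them in replicate 1, and 0 in KO. At day 3, 4 were higher and 1 lower, with *Neurog3* (4.57, SE 0.70), *Sox1* (2.47, SE 0.56) and *Pax6* (1.58, SE 0.43) the highest and *Nes* lower (-0.99, SE 0.29). Of the 6 lower at day 0, *Pax6* and *Tubb3* were higher at day 3, 1 was lower again and 3 were not called. *Neurog3* and *Sox1* already had positive values at day 0, 1.87 and 1.26 (adjusted p = 0.0677 and 0.127 in edgeR). With the block within each day both were called higher there (adjusted p = 0.0218 and 0.00573). Over the 3 WT and the 3 KO samples of day 3, *Neurog3* had 14 and 308 reads, *Sox1* 67 and 346 and *Pax6* 60 and 180. The summed level of the 12 neural genes overlapped at this day, at 109.6 to 191 CPM in WT and 115.4 to 144.1 CPM in KO. *Nes*, the gene called lower, had 8606 and 4401 reads over these WT and KO samples and weighs most in this sum.

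Few paralogs of the members were called at day 0. Of 16, 12 were tested, and at day 0 only *Fgf4* was called, higher at 1.09 (SE 0.22, adjusted p = 0.00739 in edgeR). The median of the 12 was -0.47, and several rested on few reads, which limits their tests. In WT and KO ESCs, *Pou3f2* had at most 8 and 6 reads a sample and *Zic1* at most 19 and 12. Summed over each group, *Otx1* had 39 and 17 reads and *Foxd1* 55 and 39. At day 3 *Fgf4* and *Sall1* (0.49, SE 0.09) were higher, and 4 were lower, led by *Sall3* (-3.42, SE 0.48), *Foxd1* (-1.99, SE 0.61) and *Otx1* (-1.64, SE 0.38). *Foxd1* had only 26 and 6 reads over the WT and KO samples of this day, and *Otx1* 113 and 39. The members share little sequence that could mix their counts with those of relatives. Of the 100-base words in their longest annotated transcripts, 1.95% for *Zic5* also occurred in transcripts of another gene, *Gm12241*, and 0% for the other 6 genes.

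Markers of other cell types were read beside these results, and their part in them was not tested. Of 12 fibroblast markers 11 were tested, and the sums below are over these 11. At day 0 their summed level was 109.5 to 336.4 CPM in WT and 166.5 to 459.8 CPM in KO. In edgeR 0 of the 11 was called, with a median log2 fold change of 0.64. The sum was higher in KO in each of the 3 pairs of the same replicate number, at 109.5 and 166.5, 336.4 and 459.8, and 183.7 and 293.5 CPM in WT and KO. With the block within each day 4 of the 11 were called higher, *Prrx1* (1.25), *Col1a2* (0.71), *Fbn1* (0.61) and *Thy1* (0.44), which were named after their values were seen, and 0 lower. *Col1a1* was the highest, at means of 68.2 CPM in WT and 89.1 CPM in KO, none was at 0 in both groups and *Lum* was the lowest. At day 3 the sums were 63.1 to 137.3 CPM in WT and 45.89 to 95.2 CPM in KO. Here *Dcn* (2.51, SE 0.43), *Col3a1* (1.47, SE 0.42) and *Thy1* (0.77, SE 0.16) were higher, and 4 were lower, led by *Twist2* (-2.50, SE 0.72), *Prrx1* (-2.43, SE 0.57) and *Fbn1* (-2.03, SE 0.38). Of 10 primitive streak genes 4 were lower at day 0, among them *T* (-5.49, SE 1.43), *Fgf8* (-4.81, SE 1.21) and *Lhx1*, which had 291 reads over the WT ESC samples and 2 over the KO samples. The sums of the list overlapped at this day, at 49.84 to 196.1 CPM in WT and 53.19 to 69.49 CPM in KO. The sizes rest on WT replicate 3, without which *T* was at -3.13 (adjusted p = 0.0639 in edgeR) and *Fgf8* at -3.13 (adjusted p = 0.0531), and 2 of the 10 were lower. All 10 were lower at day 3, led by *Mesp1* (-8.29, SE 0.92), *Lhx1* (-7.10, SE 0.79) and *Evx1* (-6.81, SE 0.67), when the list summed to 1016 to 2021 CPM in WT and 89.04 to 154.4 CPM in KO. WT and KO embryoid bodies at day 3 thus differed in their share of streak transcripts while the members were compared.

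The 8 endoderm markers summed to 17.53 to 35.23 CPM in WT and 18.6 to 36.32 CPM in KO at day 0, with *Ttr* at 0 in all WT ESCs, and to 33.79 to 64.6 CPM in KO at day 3. None was called at day 0 and 3 were lower at day 3, *Sox17* (-5.95, SE 0.63), *Gata6* (-4.62, SE 0.35) and *Gata4* (-3.98, SE 0.76). The rest were not called at day 3, with *Dab2* at 0.06, *Amn* at 0.70, *Afp* at -1.42, *Ttr* at -0.94 and *Sox7* at -1.65. Without WT replicate 3 of that day the same 3 were lower, and *Dab2* was called higher at 0.95 (adjusted p = 0.012 in edgeR). Of 8 immediate early and stress genes, which respond to handling of cells, 0 were higher and 3 were lower at day 0, *Egr1* (-1.09, SE 0.26), *Atf3* (-1.08, SE 0.31) and *Jun* (-1.05, SE 0.31), but 0 of the 8 without WT replicate 3. At day 3, 4 were lower, led by *Hspa1b* (-1.72, SE 0.31), *Atf3* (-1.67, SE 0.33) and *Hspa1a* (-1.52, SE 0.33). The mitochondrial share of the counts was between 1.65% and 2.82% in all samples.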

How the data were processed

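The 12 samples were grouped by genotype and day from their labels, with 3 replicates each. Per the labels, libraries followed a stranded polyadenylated mRNA protocol. The authors used cutadapt 1.3 for trimming, STAR 2.4.2a for alignment to GRCm38 and HTSeq 0.6.1 for counting, per the submitters' processing notes. Whether strand was used in counting is not given in the sources used here, so overlapping antisense transcripts such as *Gm2164* at *Pou3f1* and *Otx2os1* at *Otx2* may share reads with them. The deposited values are raw read counts per gene, without normalization. Alignments to several places made up 36.52% to 44.09% of the entries counted and were not assigned to genes, and 6.88% to 10% fell on no gene or on more than 1 gene. Both stayed out of library sizes. A read that aligned to several places may have entered more than once, so these need not be shares of reads. At the depth given in the report, low genes rest on few reads, which limits their precision.

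The counts of genes that exceeded 1 CPM in 1 or more samples were scaled by TMM and tested by quasi-likelihood in edgeR 4.0.16 (R 4.3.3). The model held the 4 groups and, since the study's methods include a factor for batch, the replicate number as a block. The methods do not say what the batch was. Adjustment was by Benjamini-Hochberg over all genes tested, with calls below 0.05. Standard errors came from the fold change and the F statistic. CPM values are TMM-scaled, with ± SD over 3 samples. The labels do not say that replicates came from separate cultures, so p-values measure the spread between these samples, which may be technical. All pairs of replicates differed by more than sampling noise (chi-square per gene between 10.58 and 50.78).

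Numbers pair samples within a day. Over 11575 genes, deviations of WT and KO samples with the same number correlated with r from 0.342 to 0.717 (6 pairs), against a mean of -0.271 for different numbers, and the same number gave a mean of -0.061 between days. A block within each day is therefore printed where it changed a call of a member or the count of a gene list at either day. The members and lists were chosen with earlier results of these data known. Named from each list were up to 3 called genes with the largest change in each direction at each day, with transcripts that start within 20 kb of a member or overlap its exons, and the genes of most similar profile. Alternatives were no replicate block, a block within each day, DESeq2 1.42.0 (no independent filtering, no Cook's cutoff), limma-voom from limma 3.58.1, RLE normalization, a minimum of 10 counts in all samples, no filter, only the 6 samples compared, a log2 fold change above 1, and each sample or replicate 3 of all groups left out. Counts of the gene lists with a block within each day, and without WT replicate 3 of a day, were chosen after seeing the data. Gene positions are from GENCODE M21 on GRCm38. Python 3.11.15 with numpy 2.4.6, pandas 2.3.3 and matplotlib 3.10.9 served for tables and figures.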

Additional observations from a re-analysis of the deposited data

Results flagged for a closer look

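The test of the difference between the days found a KO effect that was more positive at day 3 than at day 0 for 5 members. In edgeR the difference of the log2 fold changes was 4.12 for *Pou3f1*, 3.79 for *Otx2*, 3.3 for *Sall2*, 2.14 for *Zic5* and 1.98 for *Zic2*. For *Otx2*, *Pou3f1* and *Sall2* the KO samples were below all WT samples at day 0 and above all of them at day 3. For *Zic2* and *Zic5* the KO samples were below all WT samples at day 0, and the groups overlapped at day 3. All 5 comparisons between days use different samples for the 2 days, and the embryoid bodies also differed in their primitive streak transcripts. The part of those transcripts in the differences was not tested.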

How the results depend on the processing

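Of 709 values of single members under the alternatives, 672 kept their direction and their side of the threshold, 18 newly passed it, 15 no longer passed and 4 changed sign. The sign changes were in values that were not called, *Foxd3* between the days in KO (-0.01 in limma-voom, -0.26 without KO replicate 1 at day 0, -0.29 without KO replicate 1 at day 3, against 0.11) and *Zic5* between the days in WT (-0.12 without WT replicate 2 at day 3, against 0.14), and the cause was not tested. With samples left out in turn, the first ranged from -0.29 to 0.57 and the second from -0.12 to 0.28. The count of members called at day 3 was 3 in the reported fit and 6 with the replicate block within each day or with only the 6 samples compared. With samples left out in turn it was 2 to 4. At day 0 it was 5 to 7 over all alternatives. The replicate block within each day changed no call of a member beyond those given in the report. The fit without a block called 4 members in WT between the days, in place of 5, having lost *Pou3f1*, and changed no other call. *Fgf5* at day 0 missed the threshold in limma-voom (adjusted p = 0.0638) and was removed by a minimum of 10 counts in all samples. *Pou3f1* in WT between the days was also lost when only the 6 samples compared were fitted (adjusted p = 0.0833). Without replicate 3 in any group, the difference between the days for *Zic2* was 1.59 (adjusted p = 0.187). *Otx2* at day 3 also passed in limma-voom (adjusted p = 0.00971), DESeq2 (0.0218), RLE normalization (0.0463), no filter (0.0255) and without KO replicate 2 at day 0 (0.0046). Among the gene lists at day 3, the block within each day called 2 core factors higher in place of 1, and 6 neural genes higher and 2 lower in place of 4 and 1. At that day it also called 7 formative and primed genes lower in place of 5, and 3 naive genes lower in place of 2. It called 3 paralogs higher and 5 lower in place of 2 and 4, and 6 stress genes lower in place of 4. At day 0 it called 2 formative genes higher in place of 1 and 5 streak genes lower in place of 4. It also called 1 paralog lower and 1 endoderm marker higher at day 0, in place of 0 each. Without WT replicate 3 of day 3, 2 fibroblast markers were higher and 2 lower at day 3 in place of 3 and 4. In that fit 1 endoderm marker was higher in place of 0, and 7 formative and primed genes were lower in place of 5. Of the naive genes 9 were higher and 3 lower in place of 8 and 2, and 3 paralogs were lower in place of 4. Counts over all genes moved more. At day 0 they were 3201 in the reported fit, 5447 with the block within each day, 5356 with only the 6 samples compared, 1717 to 1793 without WT replicate 3 or without KO replicate 2 or 3, and 960 without replicate 3 in any group. At day 3 they were 4846, 7347 with the block within each day, 3161 and 2907 without KO replicate 2 or 3, and 2136 without replicate 3. For the difference between the days they were 2436, 4889 with the block within each day, 1391 to 1507 without KO replicate 2 at day 0 or KO replicate 2 or 3 at day 3, and 548 without replicate 3. Depth limits *Fgf5* in KO ESCs, at 7 to 21 reads a sample.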
